A study of Mus musculus and Homo sapiens with 30 samples.

Results

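Cells take up fatty acids from free fatty acid bound to albumin and from lipoproteins, and carry them inside the cell on small soluble proteins. Cd36 is a membrane scavenger receptor that binds long-chain fatty acids, the Slc27a proteins (fatty acid transport proteins) combine uptake with activation to acyl-CoA, and the Fabp proteins bind fatty acids in the cytosol. Lpl, lipoprotein lipase, releases fatty acids from triglyceride in circulating lipoproteins, and Vldlr and Lrp1 are endocytic receptors of the lipoprotein receptor family that bind lipoprotein particles. In mammary tissue, adipocytes are the classical source of Lpl, Cd36 and Fabp4, and Fabp3 was once described as a mammary-derived growth inhibitor.

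The 10 genes described here (Cd36, Slc27a1, Slc27a3, Slc27a4, Fabp3, Fabp4, Fabp5, Vldlr, Lrp1 and Lpl) were chosen by name as genes of fatty acid uptake and binding, and all 10 were found among the 56980 Ensembl gene IDs of the mouse count table. They were measured as poly(A) RNA-seq read counts in E0771, a mouse mammary carcinoma line, and in NMuMG, a mouse mammary gland epithelial line; the labels list both as breast cancer cells. After 36 h of growth, each line spent 16 h in its usual medium (control) or in that medium mixed with 50% secretome of inguinal adipocytes, lean or obese. Both lines grew in DMEM with fetal bovine serum, to which insulin and extra glucose were added for NMuMG, so the lines differed in medium as well as in origin. There were 3 libraries per line and medium, 18 in all, with 22929035 to 31094119 counted reads each. The labels give neither the species nor the number of the adipocyte donors, nor whether replicates were separate cultures, so the p-values measure only the spread between these libraries, which may be technical. In bulk libraries, fewer cells that use a gene and less RNA per cell cannot be told apart.

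The labels were checked against marker genes. In NMuMG, epithelial markers were high, with Cdh1 at 561.1 ± 16.9 CPM (read counts scaled to a common library size, corrected for composition) and Krt18 at 2610 ± 81.0 CPM in control medium (SD, n = 3). In E0771, Krt18, Krt19 and Krt5 had 0 counts in control medium, Cdh1 had 0.137 ± 0.0737 CPM and Krt8 alone was high at 243 ± 5.93 CPM (SD, n = 3). Of the 7 fibroblast markers, 4 were high in E0771 control libraries, with Col1a1 at 655 ± 45.5, Col3a1 at 124 ± 13.2, Pdgfra at 112 ± 1.39 and Pdgfrb at 92.2 ± 5.45 CPM (SD, n = 3). The other 3 were near 0, with Col1a2 at 0.251 ± 0.152, Dcn at 0.0120 ± 0.0207 and Lum at 0.0379 ± 0.0361 CPM (SD, n = 3). The E0771 libraries thus lacked most of the epithelial markers that define mammary epithelium. The adipocyte hormone Lep had 0 counts in all 18 libraries and Adipoq had at most 3, whereas the 9 adipocyte markers together summed to 46.5 to 107.7 CPM, mostly from the lipase Pnpla2 (73.2 ± 1.52 CPM in E0771 in lean secretome, SD, n = 3). The lean libraries had the highest adipocyte sums in both lines, at 81.6 to 84.9 CPM in E0771 against 46.5 to 49.2 in control, and at 102 to 107.7 CPM in NMuMG against 76.4 to 87.3 in control. The part of other cells in the results below was not tested. Summed leukocyte markers stood at 4.38 to 7.00 CPM in E0771 and at 179.5 to 214.1 CPM in NMuMG, where Cd14 made up nearly all of them, and endothelial and muscle markers reached at most 5.40 and 1.49 CPM.

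Each line used its own subset of the fatty acid genes. A gene with at most 3 counts in every library of a line was taken as below detection there. In E0771, Fabp5, Vldlr and Lpl were below detection. In NMuMG, Fabp3 was below detection. Cd36 in E0771 (0 to 4 counts) and Cd36, Fabp4 and Lpl in NMuMG (0 to 18, 0 to 4 and 0 to 7 counts) passed 3 counts in at least 1 library but were too low for the test across all genes. The remaining 6 genes of each line were tested: Slc27a1, Slc27a3, Slc27a4, Fabp3, Fabp4 and Lrp1 in E0771, and Slc27a1, Slc27a3, Slc27a4, Fabp5, Vldlr and Lrp1 in NMuMG. A count of 3 per library, the floor for detection, equals 0.0932 to 0.126 CPM in the E0771 libraries and 0.105 to 0.132 CPM in the NMuMG libraries. This floor covers counting error only.

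**Figure D1:**
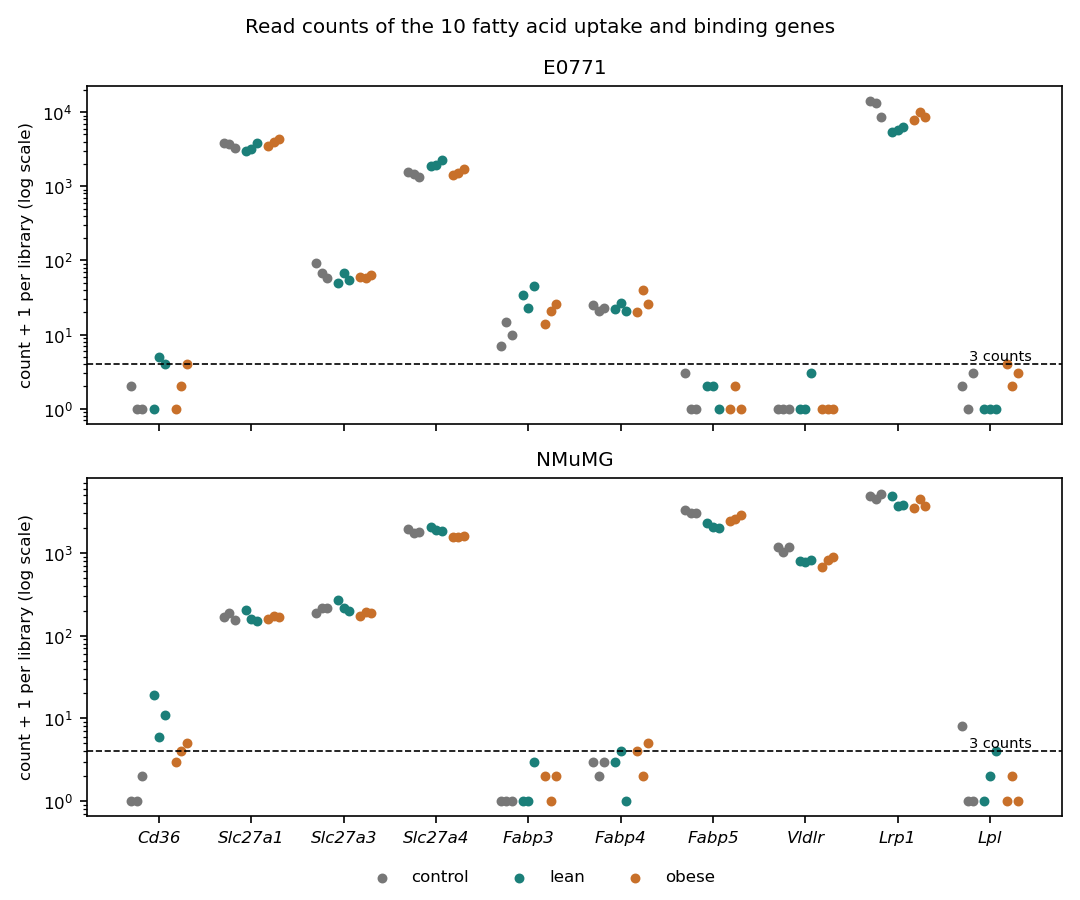
Read counts of the 10 genes in each library (vertical axis: count + 1, log scale; horizontal axis: gene; upper panel E0771, lower panel NMuMG; points: libraries, coloured by medium; dashed line: 3 counts). Fabp5 and Vldlr lie at 0 to 2 counts in E0771 and at 678 or more in NMuMG, whereas Fabp3 and Fabp4 lie at 6 to 44 counts in E0771 and at 0 to 4 in NMuMG.

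The wide differences of the Fabp genes between the lines depend on telling their reads apart, so their sequences were compared. Fabp4 and Fabp5 both code for small fatty acid binding proteins and both lie on mouse chromosome 3. Over their whole coding sequences they are 60.5% identical, and their longest identical run has 12 bases. That run, in capitals, and the coding bases around it (bases 81 to 140 of Fabp4 and 87 to 146 of Fabp5, counted from the start codon, from GENCODE M21 on GRCm38) are shown to place that run in its surroundings.
Fabp4: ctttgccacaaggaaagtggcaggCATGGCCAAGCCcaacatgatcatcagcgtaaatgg
Fabp5: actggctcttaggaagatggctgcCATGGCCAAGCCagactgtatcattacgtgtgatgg
Fabp3 and Fabp4 are 65.1% identical with a longest run of 14 bases, and Fabp3 and Fabp5 are 56.5% identical with a longest run of 10. All 3 runs are shorter than the paired 150-base reads that the labels give. By contrast, Fabp5 shares stretches of 409 bases at 98.3% identity with Gm6166 and of 408 bases at 97.3% with Gm14328, so its reads may be split with these genes. Gm6166 and Gm14328 had 0 counts in E0771, and 3049 and 160 counts in all in NMuMG, against 23516 for Fabp5 itself. Fabp3 shares 402 bases at 99.3% with Fabp3-ps1, which had 3 counts in E0771 and 0 in NMuMG.

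For 7 of the 10 members, RefSeq promoter windows on GRCm38.p6 were found by symbol (10 windows in all), and the 250 bases before the start were searched on both strands for 7 short motifs. The motifs were the GC box GGGCGG, the E box CACGTG, the antioxidant element core TGACNNNGC, the nuclear receptor element AGGTCA, the sterol element TCACNCCAC, the TATA box TATAAA and the CCAAT box CCAAT. No position matched more than 1 motif in the windows printed below. Of all 32851 windows of this length, 32.7% held the GC box, 6.02% the E box, 10.2% the antioxidant core, 14.0% the receptor element, 1.05% the sterol element, 12.4% the TATA box and 33.9% the CCAAT box. The windows of Slc27a4, which rose with lean secretome in both lines, and of Lrp1, which fell in E0771, are printed with the matches in capitals.
Slc27a4: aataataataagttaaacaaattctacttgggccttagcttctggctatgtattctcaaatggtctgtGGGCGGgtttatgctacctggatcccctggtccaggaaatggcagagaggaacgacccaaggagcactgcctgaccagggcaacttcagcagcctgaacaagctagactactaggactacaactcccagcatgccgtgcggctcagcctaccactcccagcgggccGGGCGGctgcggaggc
Lrp1: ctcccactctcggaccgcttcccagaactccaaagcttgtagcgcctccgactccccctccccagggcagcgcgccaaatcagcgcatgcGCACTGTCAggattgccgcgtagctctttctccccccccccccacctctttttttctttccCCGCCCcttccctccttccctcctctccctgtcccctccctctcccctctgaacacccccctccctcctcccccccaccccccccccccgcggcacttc
The window of Slc27a4 (chr2:29802384-29802633, plus strand) holds 2 GC boxes, and that of Lrp1 (chr10:127621149-127621398, minus strand) holds 1 GC box and 1 antioxidant core, each on the opposite strand. Their GC contents are 54.4% and 67.2%, beside a median of 52.4% over all windows. These matches are letters in a window and say nothing of binding.

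Per kilobase of principal transcript, the order of the levels also differed between the lines. In E0771 in control medium, Slc27a1 led with 48.1 ± 1.49 CPM per kb, followed by Lrp1 with 29.8 ± 4.60 and Slc27a4 with 13.3 ± 0.528 (SD, n = 3). Slc27a3 (1.17 ± 0.185 CPM per kb) and Fabp4 (0.919 ± 0.114) came next and lay within about their summed SDs of each other, and Fabp3 followed with 0.440 ± 0.180 (SD, n = 3). In lean secretome, Lrp1 dropped below Slc27a4, at 13.1 ± 0.643 against 16.6 ± 0.698 CPM per kb, and Fabp3 moved above Fabp4 and Slc27a3, at 1.33 ± 0.366 against 0.841 ± 0.164 and 0.840 ± 0.160 (SD, n = 3), within their summed SDs. In NMuMG in control medium, Fabp5 led with 117.1 ± 4.81 CPM per kb, and Slc27a4 (16.6 ± 0.329), Lrp1 (12.1 ± 0.692), Vldlr (5.21 ± 0.152), Slc27a3 (3.36 ± 0.454) and Slc27a1 (2.23 ± 0.341) followed in that order (SD, n = 3). Slc27a1 was thus the highest of the tested genes in one line and the lowest in the other.

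**Figure D2:**
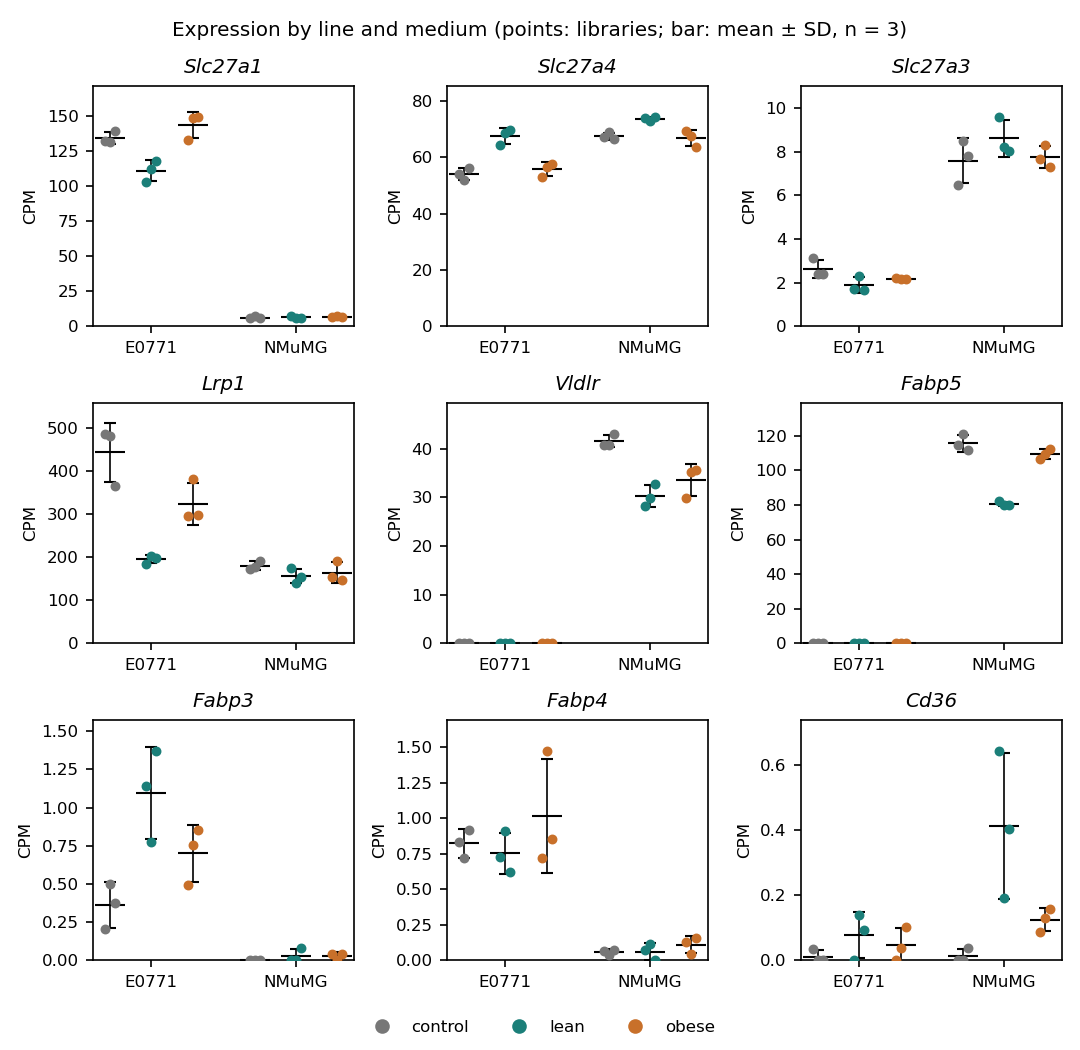
CPM of 9 of the 10 genes by line and medium (vertical axes: CPM, linear from 0; points: libraries; bars: mean ± SD, n = 3; Lpl, at 7 counts or fewer in every library, is left out). In E0771 the lean libraries of Lrp1 and Slc27a1 lie below those of the other media, and in NMuMG the lean libraries of Fabp5 do.

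The lines were first compared in control medium, a contrast in which 80.5% of the 16529 genes tested passed an adjusted p of 0.05 (edgeR's quasi-likelihood test, Benjamini-Hochberg), so a passing member is near the background. Of the 4 members tested in both lines, 4 passed, with 2 higher in each line. Fabp3, Fabp4, Fabp5 and Vldlr entered this fit only through the line in which they were detected, so their passing says nothing more, and they are described by their counts. Slc27a1, which imports long-chain fatty acids and is best known from muscle and fat, had 132, 132 and 139 CPM in E0771 and 5.75, 7.34 and 5.64 CPM in NMuMG. It was 21.6-fold lower in NMuMG, a log2 difference of -4.43 (SE 0.0755). Lrp1, a large receptor for many ligands besides lipoproteins, had 485, 481 and 365 CPM in E0771 and 172, 176 and 192 in NMuMG, a log2 difference of -1.30 (SE 0.140). The libraries of the lines did not overlap for either gene.

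Slc27a3 and Slc27a4 were higher in NMuMG, with log2 differences of 1.51 (SE 0.143) and 0.32 (SE 0.0481). Slc27a3, an acyl-CoA synthetase of the family, had 3.12, 2.41 and 2.39 CPM in E0771 and 6.48, 8.50 and 7.82 CPM in NMuMG. Vldlr had 0 counts in the 3 E0771 control libraries and 3362 in those of NMuMG. With a floor of 3 counts for the 3 libraries of a group together, it was at least 1115-fold higher in NMuMG. Fabp5, the epidermal type of fatty acid binding protein, had 2 counts against 9353, a ratio of 4652 (exact 95% interval of the counts 1287 to 38420). In the other direction, Fabp3, the heart type, had 29 counts in E0771 and 0 in NMuMG, at least 9.72-fold higher with the same floor. Fabp4, the adipocyte type, had 66 counts in E0771 and 5 in NMuMG, a ratio of 13.3 (exact 95% interval 5.41 to 42.2). These intervals cover counting error only.

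The Fabp genes of chromosome 3 lie side by side, and the lines differed in which of them was detected most. In RefSeq's gene order the neighbours run Zfp704, Pag1, Fabp5, Pmp2, Fabp9, Fabp4, Fabp12, Impa1 and Slc10a5. Fabp5 had 0 to 2 counts per library in E0771 and 1986 to 3288 in NMuMG over all 3 media, and Fabp4, at a far lower level, had 19 to 39 and 0 to 4. Pmp2, Fabp9 and Fabp12, which lie between or beside them and also code for fatty acid binding proteins, had 0 to 2 counts in every library. Pag1, an adaptor protein gene next to Fabp5, was also higher in NMuMG, with 365 to 526 counts against 5 to 11. Zfp704 and Impa1 were well counted in both lines, at 1267 to 1908 and 1178 to 1876 counts in E0771 and 1512 to 2282 and 2338 to 2962 in NMuMG, and Slc10a5 had 0 counts in E0771 and 8 to 28 in NMuMG.

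The media were then compared within each line. Lean over obese secretome changed 52.7% of the 13813 genes tested in E0771 and 35% of the 15014 tested in NMuMG, and lean secretome over control changed 56.3% and 38.2%. Obese secretome over control changed 2.61% in E0771 and 5.01% in NMuMG. These last shares rest on single libraries. The 360 genes in E0771 became 79 or 110 when control replicate 1 or 2 was left out, 192 or 89 when obese replicate 1 or 3 was, and 601 when lean replicate 3 was. The 752 genes in NMuMG became 384 or 465 when control replicate 1 or 2 was left out, and 490 or 482 when obese replicate 1 or 3 was. In lean over obese, the libraries of the 2 media did not overlap for 60.5% of the genes tested in E0771 and 45.3% in NMuMG. In lean over control these shares were 61.4% and 47.8%, and in obese over control 21.7% and 21.3%. Libraries that do not overlap were thus common among all genes. The lean and obese comparisons with control share the control libraries, and the 2 lean comparisons share the lean libraries. Among the 6 tested members of E0771, 3 changed between lean and obese (1 higher, 2 lower), 5 between lean and control (2 higher, 3 lower) and 0 between obese and control by edgeR, where 2130 of all genes had an unadjusted p under 0.05. Of the 6 members in that last comparison, 2 had an unadjusted p under 0.05 by edgeR: Fabp3 at 0.0242 and Lrp1 at 0.0206. Among the 6 tested members of NMuMG, 2 changed between lean and obese (1 higher, 1 lower), 3 between lean and control (1 higher, 2 lower) and 1 between obese and control (lower). The median absolute log2 change of lean over obese was 0.41 for the members and 0.24 for all genes in E0771, and 0.15 for the members and 0.16 for all genes in NMuMG. Read against the shares of all genes given above, these counts out of 6 set nothing apart about the members.

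**Figure D3:**
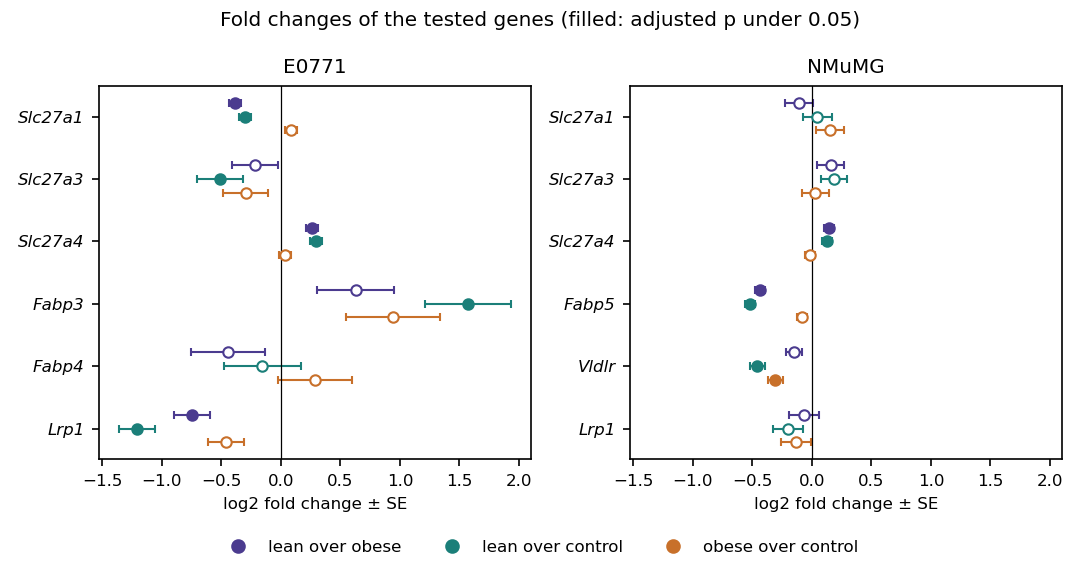
Log2 fold changes of the 6 tested genes in each line. The horizontal axis gives the log2 fold change from edgeR ± an SE derived from its F statistic. Colours mark the comparison, and filled points have an adjusted p under 0.05. Slc27a4 lies right of 0 in the lean comparisons of both lines, Lrp1 lies farthest left in E0771, and Fabp5 and Vldlr lie left of 0 in NMuMG.

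The transporter Slc27a1 (ENSMUSG00000031808) fell with lean secretome in E0771, and in NMuMG no change passed the test. E0771 had 132, 132 and 139 CPM in control, 103, 112 and 118 in lean and 133, 148 and 149 in obese secretome. The 3 lean libraries were all below the others, while control and obese libraries overlapped. The log2 change was -0.38 (SE 0.0507, adjusted p = 9.7e-07) for lean over obese and -0.30 (SE 0.0509, adjusted p = 2.3e-05) for lean over control by edgeR. In NMuMG, Slc27a1 had 5.64 to 7.34 CPM in control, 6.01 to 7.18 in lean and 6.52 to 7.35 in obese secretome, and the 3 media overlapped, with adjusted p of 0.537, 0.800 and 0.579 by edgeR. Slc27a1 shares a stretch of 167 bases at 95.2% identity with Slc3a2, a gene counted far more often (91359 against 32601 counts in E0771 and 64469 against 1504 in NMuMG), so the low NMuMG value in particular is uncertain to the extent that reads in that stretch were assigned to the wrong gene.

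Slc27a4 (ENSMUSG00000059316), a long-chain fatty acid transporter abundant in gut and skin, rose with lean secretome in both lines. In E0771 it had 54.1, 51.9 and 56.2 CPM in control, 64.2, 68.4 and 69.6 in lean and 53.0, 56.7 and 57.6 in obese secretome. The lean libraries were above all others. The log2 change was 0.26 (SE 0.0518, adjusted p = 0.00016) over obese and 0.29 (SE 0.0519, adjusted p = 3.3e-05) over control by edgeR. In NMuMG it had 67.0, 68.8 and 66.3 CPM in control, 74.0, 72.8 and 74.1 in lean and 69.1, 67.5 and 63.5 in obese secretome, again with the lean libraries above all others. The log2 change there was 0.15 (SE 0.0438, adjusted p = 0.00854) over obese and 0.13 (SE 0.0433, adjusted p = 0.0165) over control by edgeR. Without obese replicate 3 the NMuMG lean over obese call was lost (adjusted p = 0.0765), and the lean over control call was lost without control replicate 1 (0.0616) or control replicate 3 (0.0604).

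Slc27a3 (ENSMUSG00000027932) had 3.12, 2.41 and 2.39 CPM in control, 1.70, 2.31 and 1.68 in lean and 2.23, 2.15 and 2.15 in obese secretome in E0771. It fell by 0.51 on the log2 scale from control to lean (SE 0.192, adjusted p = 0.0265, edgeR). This call rests on few libraries: it was lost under DESeq2 (adjusted p = 0.0971) and without control replicate 1 (0.155), lean replicate 1 (0.0897) or lean replicate 3 (0.0961). In NMuMG, Slc27a3 had 6.48 to 8.50 CPM in control, 8.03 to 9.58 in lean and 7.31 to 8.30 in obese secretome, and no change passed the test.

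Of the binding proteins, Fabp3 (ENSMUSG00000028773) rose with lean secretome in E0771 at low counts. Its counts were 6, 14 and 9 in control, 33, 22 and 44 in lean and 13, 20 and 25 in obese secretome. The lean libraries were all above the control libraries, and the obese libraries lay between and overlapped both. Fabp3 rose 2.97-fold from control to lean, a log2 change of 1.57 (SE 0.364, adjusted p = 0.00068, edgeR), and this held in 14 of 14 alternative analyses. Lean over obese did not pass, at 0.63 (SE 0.322, adjusted p = 0.106), nor did obese over control, at 0.94 (SE 0.393, adjusted p = 0.230, edgeR). In NMuMG, Fabp3 had 0 to 2 counts and was at 0 in 6 of 9 libraries.

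Fabp4 (ENSMUSG00000062515) showed no change that passed the test in E0771, with 24, 20 and 22 counts in control, 21, 26 and 20 in lean and 19, 39 and 25 in obese secretome. The 3 media overlapped, and obese replicate 2 had the highest count. Lean over obese stood at -0.44 on the log2 scale (SE 0.311, adjusted p = 0.242, edgeR), an error that would hide a moderate change.

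Fabp5 (ENSMUSG00000027533) fell with lean secretome in NMuMG. It had 115, 121 and 111 CPM in control, 82.2, 79.8 and 80.1 in lean and 107, 110 and 112 in obese secretome. The lean libraries were far below the others and differed little among themselves, while control and obese libraries overlapped. The log2 change was -0.44 (SE 0.0403, adjusted p = 1.3e-10) over obese and -0.52 (SE 0.0399, adjusted p = 1.1e-12) over control by edgeR, and both held in 14 of 14 alternative analyses. Obese over control was -0.08 (SE 0.0393, adjusted p = 0.291, edgeR). Summed with Gm6166 and Gm14328, its near-identical copies, the level was 130.8 ± 5.10 CPM in control, 92.2 ± 2.39 in lean and 124.4 ± 3.93 in obese secretome (SD, n = 3), so the lean mean was the lowest in this sum too. In E0771, Fabp5 had 0 to 2 counts and was at 0 in 5 of 9 libraries.

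Of the lipoprotein receptors, Lrp1 (ENSMUSG00000040249) fell with lean secretome in E0771. It had 485, 481 and 365 CPM in control, 185, 203 and 199 in lean and 295, 381 and 298 in obese secretome. The lean libraries were below all others, and the obese libraries ran from below control into its range. Lrp1 was 2.31-fold lower in lean secretome than in control, a log2 change of -1.21 (SE 0.153, adjusted p = 0.00054), and -0.74 (SE 0.152, adjusted p = 0.00621) over obese secretome by edgeR. Obese over control was -0.46 (SE 0.150, adjusted p = 0.214, edgeR). Lrp1 has a transcript of 14888 bases, and the median change of the 222 tested E0771 genes with transcripts over 10 kb was -0.15 in both comparisons with control and 0.02 for lean over obese. Relative to that median, a comparison added after the data were seen, Lrp1 stood at -1.06 for lean over control and -0.76 for lean over obese. The summed 7 fibroblast markers in E0771 stood at 926 to 1035 CPM in control, 406 to 429 in lean and 706 to 940 in obese secretome. This sum was carried by Col1a1 (655, 198 and 503 CPM in control, lean and obese) and, between control and lean, Col3a1 (124, 43.7 and 120), whereas Pdgfra (112.0, 98.4 and 111.6) and Pdgfrb (92.2, 78.0 and 99.2) moved little. Their part in the result was not tested. In NMuMG, Lrp1 had 172 to 192 CPM in control, 141 to 174 in lean and 147 to 192 in obese secretome, and no change passed the test.

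Vldlr (ENSMUSG00000024924), a receptor for triglyceride-rich lipoproteins in muscle, fat and other tissues, fell with both secretomes in NMuMG. It had 40.8, 40.8 and 42.9 CPM in control, 28.2, 29.8 and 32.7 in lean and 29.8, 35.1 and 35.7 in obese secretome. Every secretome library was below every control library, and lean and obese libraries overlapped. The log2 change was -0.46 (SE 0.0628, adjusted p = 4.1e-07) for lean over control and -0.31 (SE 0.0628, adjusted p = 0.00197) for obese over control by edgeR, and both held in 14 of 14 alternative analyses. Vldlr was the only member that changed with obese secretome by this test, in either line. Lean over obese stood at -0.15 (SE 0.0650, adjusted p = 0.0717, edgeR), and it passed without lean replicate 3 (0.0187) or obese replicate 1 (0.0059). In E0771, Vldlr had 2 counts in lean replicate 3 and 0 in the other 8 libraries.

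Cd36 (ENSMUSG00000002944), the scavenger receptor, was close to the floor in both lines. In NMuMG it had 0, 0 and 1 counts in control, 18, 5 and 10 in lean and 2, 3 and 4 in obese secretome. The lean libraries were above all others, and the obese libraries were all above the control libraries. Summed over libraries, the 33 lean counts against 1 in control gave a ratio of 33.9 (exact 95% interval 5.68 to 1381), and against 9 in obese secretome a ratio of 3.32 (1.55 to 7.89). These intervals cover counting error only, while the lean libraries themselves ranged from 5 to 18 counts and the control count came from 1 library. Cd36 did not reach the count filter of the main test. Without the filter, edgeR gave an adjusted p of 2.1e-05 for lean over control, 0.0654 for lean over obese and 0.217 for obese over control, and DESeq2 gave an unadjusted p of 0.00037 for lean over control with no adjusted p. At its highest, in NMuMG lean replicate 1, Cd36 stood at 0.643 CPM. In E0771, Cd36 had 0 to 4 counts, with 1, 7 and 4 counts in all in control, lean and obese secretome.

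Lpl (ENSMUSG00000015568), the lipase, was near 0 in both lines, and no fold is given. E0771 had 1, 0 and 2 counts in control, 0, 0 and 0 in lean and 3, 1 and 2 in obese secretome. NMuMG had 7 counts in control replicate 1 and 0 to 3 in the other 8 libraries. Lpl shares stretches of at least 150 bases at 95% or more with 5 other genes, of which Trim5 had 52 counts in E0771 and 20 in NMuMG, so even these few reads are uncertain.

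Whether a response differed between the lines was tested as an interaction in 1 fit of all 18 libraries, for the 4 members that were tested in both lines. Over all 16529 genes, 34.2% differed between lines in lean over obese, 34.5% in lean over control and 1.69% in obese over control. In lean over control, 4 of these 4 members differed, and the difference is given as the NMuMG minus the E0771 change: Lrp1 0.98 (SE 0.198, adjusted p = 0.00157), Slc27a3 0.67 (SE 0.211, adjusted p = 0.0107), Slc27a1 0.32 (SE 0.121, adjusted p = 0.0362) and Slc27a4 -0.19 (SE 0.0672, adjusted p = 0.0235) by edgeR. The first 3 had fallen in E0771 and did not pass the test in NMuMG, and Slc27a4 had risen by more in E0771. The Lrp1 difference passed in every alternative run, and the Slc27a3 difference was lost without E0771 control replicate 1 (adjusted p = 0.0714). The Slc27a1 difference was lost without E0771 control replicate 3 (0.0672), E0771 lean replicate 1 (0.0759), NMuMG control replicate 1 (0.133), NMuMG control replicate 3 (0.141) or NMuMG lean replicate 1 (0.204). The Slc27a4 difference was lost with no filter on low counts (0.0689) and without E0771 control replicate 2 (0.0816), E0771 lean replicate 3 (0.0527), NMuMG control replicate 2 (0.0565) or NMuMG lean replicate 3 (0.0651). In lean over obese, 1 of 4 differed, Lrp1 at 0.66 (SE 0.199, adjusted p = 0.0198, edgeR), and this was lost without E0771 obese replicate 2 (0.0529), NMuMG lean replicate 1 (0.0557) or NMuMG obese replicate 3 (0.0539). Slc27a1 stood at 0.26 (SE 0.122, adjusted p = 0.0990, edgeR) in lean over obese. It passed with no filter on low counts (adjusted p = 0.0498, edgeR) and without E0771 lean replicate 3 or E0771 obese replicate 1. In obese over control, 0 of 4 differed by edgeR, with 2176 of all genes at an unadjusted p under 0.05. For Fabp3, Fabp4, Fabp5 and Vldlr, 1 line was at or near 0, and no difference between lines is given.

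Across the 9 libraries of a line, the most opposite pair in E0771 was Slc27a3 and Fabp3, both at low counts (Pearson r of -0.94 over 9 libraries of 3 media). Lrp1 and Slc27a4 followed there at -0.86. In NMuMG the most opposite pair was Fabp5 and Slc27a4 (r of -0.86). Other pairs ran together, such as Lrp1 and Slc27a3 in E0771 (0.80) and Fabp5 and Vldlr in NMuMG (0.76). The genes most like Lrp1 in E0771, by Pearson r of log2 CPM over the 9 libraries, were Tspoap1 (0.996), Pcnt (0.994) and Fam193a (0.994). Those most like Fabp5 in NMuMG were Foxo6 (0.995), Parva (0.993) and Axl (0.991). These values describe libraries that share their media and carry no test.

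The other genes of fatty acid handling were read from 6 lists, whose counts of changed genes are to be read against the shares of all genes changed: 52.7% in E0771 and 35% in NMuMG for lean over obese, 56.3% and 38.2% for lean over control, and 2.61% and 5.01% for obese over control. Of 10 other fatty acid carriers, 6 were tested in each line, and 2 rose and 3 fell in lean over obese secretome in both. Scarb1, a scavenger receptor of the Cd36 family that binds HDL, rose from 229 ± 22.5 to 508 ± 45.5 CPM in E0771 (log2 1.14, SE 0.0758) and from 57.3 ± 3.68 to 66.1 ± 1.597 CPM in NMuMG (0.21, SE 0.0484; SD, n = 3). Mfsd2a, a transporter of lysophosphatidylcholine that carries omega-3 fatty acids, rose by 1.07 (SE 0.114) in E0771. Cav1, the coat protein of caveolae, fell in both lines, by 0.72 (SE 0.0659) in E0771 and by 0.43 (SE 0.0372) in NMuMG on the log2 scale. The list's median change was -0.17 in E0771 and -0.12 in NMuMG, beside 0.00 for all genes in each. In lean over control 2 rose and 3 fell in E0771 and 2 rose and 2 fell in NMuMG, and in obese over control Cavin1 fell in E0771 and 0 of 6 changed in NMuMG.

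The 12 other intracellular lipid binding proteins were mostly too low to test, with 2 tested in E0771, of which 0 changed, and 3 in NMuMG, of which Fabp2, the intestinal type, rose in lean over obese from 0.363 ± 0.0482 to 0.979 ± 0.0561 CPM (log2 1.42, SE 0.371, adjusted p = 0.00274, edgeR; SD, n = 3). It also rose in lean over control, from 0.314 ± 0.132 CPM in control (SD, n = 3), and 0 of 3 genes changed in obese over control. Outside lean secretome, Fabp2 lay near the count filter. Its entry to the test drew on the lean libraries, in which it was high, so its calls carry little weight. Medians of so few genes are not informative and were 0.18 in E0771 and 0.52 in NMuMG.

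Of the 18 partners and relatives of lipoprotein lipase, 8 were tested in E0771 and 10 in NMuMG. Angptl4, a secreted inhibitor of the lipase, rose in lean over obese secretome from 23.3 ± 5.85 to 129 ± 1.88 CPM in E0771 (log2 2.46, SE 0.154) and from 16.0 ± 1.90 to 40.1 ± 2.49 CPM in NMuMG (1.33, SE 0.0724; SD, n = 3). In NMuMG it also rose in obese over control, by 0.61 (SE 0.0846, adjusted p = 7.2e-06, edgeR). In E0771, 2 genes rose and 3 fell in lean over obese, among them Lipg, the endothelial lipase, which fell by 1.34 (SE 0.430) at under 1 CPM, and Apoe, a ligand of Vldlr and Lrp1, which rose by 0.75 (SE 0.211). In NMuMG, 4 rose and 1 fell, among them Lmf1, a maturation factor of the lipase, which rose by 0.43 (SE 0.0658), while Lpl itself stayed near 0. The list's median was -0.09 in E0771 and 0.22 in NMuMG. In lean over control 2 rose and 3 fell in E0771 and 4 rose and 3 fell in NMuMG, and in obese over control 0 of 8 and 2 of 10 (1 higher, 1 lower) changed.

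Of the 18 other members and partners of the lipoprotein receptor family, 14 were tested in E0771 and 15 in NMuMG. In lean over obese, 4 rose and 6 fell in E0771, and 7 rose and 2 fell in NMuMG, with medians of -0.10 and 0.09. Lrp2, the receptor megalin, rose in both lines, from 55.7 ± 11.6 to 121 ± 4.10 CPM in E0771 (log2 1.11, SE 0.169) and from 9.89 ± 1.39 to 14.6 ± 1.63 CPM in NMuMG (0.57, SE 0.102; SD, n = 3). Lrp4, a receptor with a role at the nerve-muscle synapse, fell by 1.34 (SE 0.133) in E0771. Lrp5, a Wnt co-receptor, fell by 0.33 (SE 0.0375) in E0771 and rose by 0.29 (SE 0.0351) in NMuMG, a difference between lines of 0.61 (SE 0.0523, adjusted p = 4.7e-12, edgeR). In NMuMG, Reln, a ligand of Vldlr, rose by 0.91 (SE 0.300) at about 1 CPM. In lean over control 5 rose and 3 fell in each line, and in obese over control 0 of 14 changed in E0771 and 3 of 15 (2 higher, 1 lower) in NMuMG.

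Of the 11 acyl-CoA synthetases and acyl-CoA binding proteins, 10 were tested in E0771 and 9 in NMuMG. In lean over obese, 3 rose and 4 fell in E0771 and 3 rose and 2 fell in NMuMG, with medians of -0.01 and 0.10. Acsbg1 rose in both lines, from 1.08 ± 0.180 to 4.08 ± 0.391 CPM in E0771 (log2 1.91, SE 0.198) and from 72.0 ± 1.62 to 87.0 ± 4.399 CPM in NMuMG (0.28, SE 0.0446; SD, n = 3). Acsl3, which activates fatty acids at lipid droplets, fell by 0.58 (SE 0.0582) in E0771 and by 0.24 (SE 0.0366) in NMuMG, and Acsl1 rose by 0.75 (SE 0.0622) in E0771. In lean over control 5 rose and 3 fell in E0771 and 2 rose and 2 fell in NMuMG, and in obese over control 0 of 10 and 2 of 9 (1 higher, 1 lower) changed.

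Of the 12 lipid sensing receptors and their partners, 6 were tested in E0771 and 10 in NMuMG. In lean over obese, 1 rose and 5 fell in E0771, and 3 rose and 2 fell in NMuMG, with medians of -0.23 and 0.05. Ppard, a fatty acid sensing nuclear receptor, rose in both lines, by 0.77 (SE 0.0729) in E0771 and 0.22 (SE 0.0505) in NMuMG. Nr1h3, the oxysterol receptor LXR alpha, fell by 0.60 (SE 0.0568) in E0771, from 45.9 ± 1.95 to 30.6 ± 1.159 CPM, and rose by 0.47 (SE 0.0810) in NMuMG, from 14.8 ± 2.03 to 20.5 ± 0.555 CPM (SD, n = 3). The difference of Nr1h3 between lines was 1.06 (SE 0.0985, adjusted p = 3.3e-11, edgeR). In lean over control 1 rose and 5 fell in E0771 and 3 rose and 1 fell in NMuMG, and in obese over control 0 of 6 and 1 of 10 (Ppard, higher) changed.

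**Figure D4:**
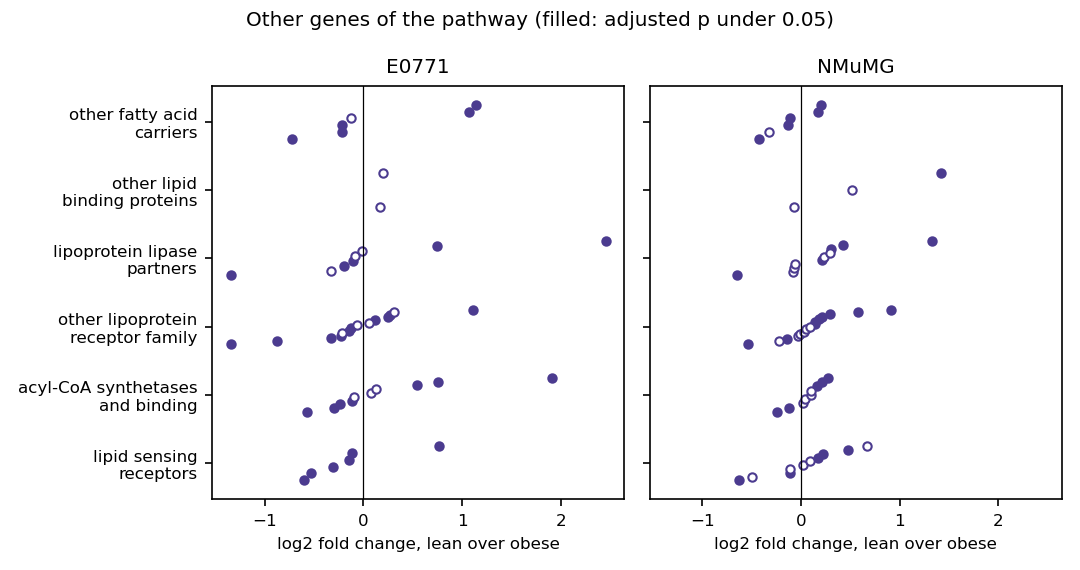
Log2 fold changes of lean over obese secretome for the tested genes of the 6 lists in each line (horizontal axis: log2 fold change from edgeR; rows: lists; filled points: adjusted p under 0.05). Points lie on both sides of 0 in most rows, and Angptl4 is the rightmost point in E0771 at 2.46.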

How the data were processed

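Poly(A) RNA was sequenced as paired reads from a directional library kit, per the labels' protocols. The authors deposited raw counts per Ensembl gene ID, whole numbers with no normalization applied. The submitters' processing notes name cutadapt 1.16, STAR 2.7.9a, featureCounts 1.6.3 and the build GRCm39, without their order or settings, and the strand setting and the annotation release are not given in the sources used here. The human table of the series was not analysed here.

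Gene names and transcript lengths came from GENCODE M21 on GRCm38 (52073 of 56980 IDs matched), and promoter windows from RefSeq on GRCm38.p6. Each line was fitted alone, with its 9 libraries in 3 media, in edgeR 4.0.16 under R 4.3.3 (limma 3.58.1): filterByExpr set the genes tested, TMM the scaling, and each contrast had a robust quasi-likelihood F test. The SE of a log2 change was derived as the absolute change divided by the square root of its F statistic. Benjamini-Hochberg adjustment ran over all genes tested in a contrast, and a gene changed at an adjusted p under 0.05. Differences between lines came from 1 fit of all 18 libraries, whose TMM factors ran from 0.949 to 1.05. CPM (counts per total of a library times that factor, on a common scale) were set across both lines. Replicates within groups differed by a chi-square per degree of freedom of 2.22 to 7.71, above counting error alone, and the median SE of a log2 change of lean over obese was 0.0720 in E0771 and 0.0708 in NMuMG. The fits were tested on simulated data.

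All 10 members are named. From the lists of other genes, the examples were taken among those past the threshold, largest absolute lean over obese change first, and some genes are not reported by name here. Genes most like Lrp1 and Fabp5 were the 3 with the highest Pearson r of log2 CPM (prior count 2) over 9 libraries. The members and lists were chosen with earlier results of these data known. Alternatives tried were DESeq2's size factors, DESeq2 1.42.0, no filter, fits of only the 2 groups compared, a replicate block, a floor of 10 counts for detection, and leaving out each replicate. Setting Lrp1 against the median of genes with transcripts over 10 kb was added after the data were seen.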

Additional observations from a re-analysis of the deposited data

Results flagged for a closer look

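For 4 members, the response to a medium differed between E0771 and NMuMG by an interaction test in 1 fit of all 18 libraries (edgeR, adjusted over all genes). Each value is the log2 change in NMuMG minus that in E0771. In lean secretome over control, Lrp1 differed by 0.98, Slc27a3 by 0.67, Slc27a1 by 0.32 and Slc27a4 by -0.19. Of all genes tested, 34.5% differed between lines in this comparison. In 22 alternative analyses, the difference passed in 22 for Lrp1, 21 for Slc27a3, 17 for Slc27a1 and 17 for Slc27a4. In lean over obese secretome, where 34.2% of all genes differed, Lrp1 differed by 0.66 and passed in 19 of 22. Among the other genes of the pathway, Lrp5 differed by 0.61 and Nr1h3 by 1.06 in lean over obese; both fell in E0771 and rose in NMuMG. These contrasts share their lean libraries. The difference in NMuMG medium, which held insulin and added glucose, cannot be told apart from the difference between lines.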

How the results depend on the processing

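Of the members' changes, 919 values under alternative settings kept their direction and, where they had an adjusted p, their side of the threshold. These include the Lrp1 changes relative to genes with transcripts over 10 kb, which have no adjusted p. They also include the control medium differences between lines of Fabp3, Fabp4, Fabp5 and Vldlr, which entered that fit only through 1 line. Changes that stayed short of the threshold are counted too, so the total is not a measure of how firm the calls are. Another 21 lost and 5 gained the call, and 10 turned sign. The libraries or settings that decide a call stand beside each result above. All 10 that turned were changes that did not pass the test. Leaving out 1 library at a time, their log2 changes ran from -0.060 to 0.48 for Fabp4 in E0771 obese over control, and in NMuMG from -0.047 to 0.17 for Slc27a1 in lean over control, from -0.15 to 0.065 for Lrp1 in lean over obese, and, in obese over control, from -0.077 to 0.11 for Slc27a3 and from -0.040 to 0.019 for Slc27a4. The line difference of Slc27a1 in obese over control ran from -0.0021 to 0.19. Over the same set, the genes changed in obese over control numbered 79 to 601 in E0771 (360 with all libraries), 384 to 893 in NMuMG (752) and 149 to 392 for the line difference (279). The members changed in NMuMG lean over obese numbered 1 to 3, and those whose lean over obese change differed between lines 0 to 2. With no filter on low counts, obese over control changed 626 genes in E0771 and 428 differed between lines, and 2 members differed between lines in lean over obese. With a floor of 10 counts, 3 members were below detection in NMuMG. The causes were not tested.

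Same-numbered libraries of different media had deviations with a correlation of -0.0556 to 0.103 (E0771) and -0.0229 to 0.0119 (NMuMG). Libraries of different media and numbers had -0.0758 to 0.0795 and -0.0182 to 0.0210. In E0771 6 of 9 libraries, and in NMuMG 0 of 9, were most alike with 1 of their own number. The ranges overlap, and whether the numbers pair libraries in E0771 is not settled by these values. With a replicate block, 7150 and 5190 genes changed in lean over obese in E0771 and NMuMG, and no member's call changed. Members with under 50 counts carry SEs above 0.3, so small changes of Fabp3 and Fabp4 were not detectable at this depth.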
